A study of Mus musculus with 22 samples.

Results

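The aorta-gonad-mesonephros region (AGM) of the mouse embryo was sorted into libraries of 25 cells on VE-cadherin, CD44 and Kit, and the 2 populations furthest along the passage from endothelium to blood were compared here. They made up 6 of the 22 libraries of the series. The 3 CD44High libraries, which the labels call HSPC (haematopoietic stem and progenitor cells), are replicates 20, 21 and 22 and all came from E11 embryos. The 3 CD44LowKitPos libraries, labelled Pre-HSPC, are replicates 17 and 18 from E10 and replicate 19 from E9.5. All embryos were untreated C57BL/6 wild type, and each library was placed in its population by its labels. No stage is shared between the populations, and the label date changes with the stage. Stage, date and population therefore cannot be told apart within these 6 libraries. The other 16 libraries, 10 CD44Neg and 6 CD44LowKitNeg, are endothelial and cover E9.5, E10 and E11. They entered the fit for the estimate of spread and gave a separate comparison of stages.

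CD44 is a hyaluronan receptor that blood cells carry, and Kit is the receptor of stem cell factor. In the AGM, endothelial cells of the dorsal aorta lose the junctions and the transcription factors of the vessel wall and take on a blood programme, which is driven by RUNX1, GFI1, PU.1 and GATA2. The same region also holds macrophages and erythroid cells that arose earlier, in the yolk sac, so the genes of mature blood lineages were examined beside those of stem cells.

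Between 5891679 and 6965898 reads were counted in CD44LowKitPos and between 4385865 and 5974244 in CD44High, over 11581 to 12627 genes with a count. A count of 0 allows up to 3 counts, at most 0.465 CPM (counts scaled to the library total, here after TMM, and called normalised CPM) in CD44LowKitPos and 0.816 in CD44High. Only counting error enters this limit, as PCR copies could not be told from molecules. The ribosomal precursor *Rn45s* took 16.6% to 23.9% of the reads in CD44High and 6.82% to 9.26% in CD44LowKitPos. Replicates of one population differed by far more than counting error, with a chi-square per degree of freedom of 33.7 to 74.1. CD44LowKitPos replicate 19 stood apart from replicates 17 and 18. On log2 CPM it lay 160.2 and 168 from them, against 142 between these, and its nearest library was CD44LowKitNeg replicate 14 at 159. Each of the other 5 libraries had its nearest neighbour in its own population.

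The mRNA of the 3 sort markers was set beside the sort, which was made on protein. In the paper Kit split the CD44Low cells, so *Kit* mRNA is no check of the CD44High sort. *Cdh5*, which encodes VE-cadherin, was at 73.5, 217 and 213 normalised CPM in CD44LowKitPos replicates 17, 18 and 19, in the order used for every gene below. It had 0 counts in CD44High replicates 20, 21 and 22 and was thus at least 205-fold lower there, a bound computed against the highest limit of a single CD44High library (edgeR's adjusted p = 4.3e-08). The cells were sorted on VE-cadherin protein, and its mRNA was not detected in CD44High. *Cd44* was at 223, 354 and 195 normalised CPM in CD44LowKitPos and at 340.5, 292 and 171 in CD44High. The ranges of *Cd44* overlapped, and the log2 fold change was 0.06 (SE 0.62, edgeR's adjusted p = 0.995), although CD44 protein separated the populations. *Kit* was at 246, 269.7 and 174 normalised CPM in CD44LowKitPos and at 120.2, 68.2 and 39.4 in CD44High. All CD44High libraries lay below all CD44LowKitPos libraries, but the difference did not pass the threshold (log2 fold change −1.60, SE 0.47, edgeR's adjusted p = 0.0421).

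Of the 12949 genes tested, 390 changed between the populations (3.01%, adjusted p under 0.01 in edgeR's quasi-likelihood test), 101 higher (0.78%) and 289 lower (2.23%) in CD44High. Without replicate 22 the higher count was 49, and it was 62 without replicate 18 and 69 to 89 without any other of the 6 libraries. All 390 exceeded 2-fold, and their median absolute log2 fold change was 5.11. The median log2 fold change of all tested genes was −0.02. The balance of rises and falls depended on the test. With only the 6 libraries fitted, 141 genes were higher (1.29%) and 63 lower (0.576%), and limma voom called 361 higher (2.79%) and 124 lower (0.958%). DESeq2's Wald test called 218 higher (1.79%) and 498 lower (4.1%). The fit of the 6 libraries, limma voom and DESeq2 shared 119, 203 and 350 of their calls with the 390. Of 27 endothelial genes, 23 were called lower here and 12, 10 and 26 in these 3 fits. Of 19 macrophage genes, 9 were called higher here and 13, 17 and 4 in these fits. The ranges of the 3 and 3 libraries were separate for 3100 of all tested genes (23.9%) and for 381 of the 390.

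**Figure D1:**
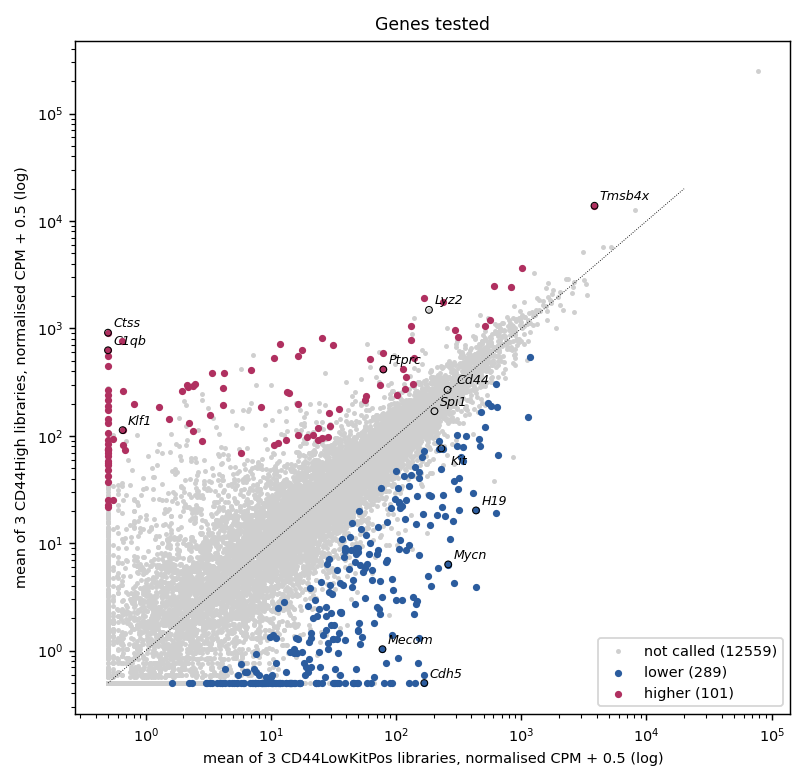
Mean normalised CPM plus 0.5 over the 3 CD44High libraries (vertical, log axis) against the mean over the 3 CD44LowKitPos libraries (horizontal, log axis) for the 12949 genes tested, with the 101 called higher in red, the 289 called lower in blue and named genes circled. *Ctss* and *C1qb* lie on the left edge, at 0 counts in CD44LowKitPos, and *Cdh5* lies on the lower edge, at 0 counts in CD44High.

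Many changes were between presence and absence. Of the called genes, 83 had 0 counts in all CD44High libraries and 29 had 0 counts in all CD44LowKitPos libraries, against 851 and 473 of all tested genes. Of the 101 higher genes, 30 had 0 counts in all 16 endothelial libraries, against 144 of all tested genes (1.11%). Such genes pass the filter on low counts only through the blood libraries, so this contrast is in part built in. Of the 289 lower genes, 214 (74.0%) had a higher mean in both endothelial populations than in CD44LowKitPos, against 4716 of all tested genes (36.4%). Of the lower genes, 3 (1.04%) were under 0.5 times the CD44LowKitPos mean in both endothelial populations, against 857 of all tested genes (6.62%).

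Genes of macrophages were among those that rose most. The macrophage list held 21 genes, of which 19 passed the filter on low counts and 9 rose, with a median log2 fold change of 6.69 over the 19. With genes at 0 in a whole population set to their bound, the median was 6.54. No member fell. Of the 19, 8 had 0 counts in CD44LowKitPos, so that their levels in CD44High brought them past the filter. DESeq2's Wald test called 4 of the 17 with an adjusted p there (1.79% of all genes were called higher), with adjusted p from 0.0892 to 0.161 for the genes of C1q and *Adgre1*. The fit with stage as a covariate called 5. A gene with hardly a count in endothelium gives that fit no means to divide stage from population, so its value there does not bear on stage. The 3 genes of C1q and *Adgre1*, without a count in endothelium, were at an adjusted p of 1 and *Csf1r*, with 1 count, at 0.145. *C1qb*, a subunit of complement C1q made by tissue macrophages, had 0 counts in CD44LowKitPos and was at 261, 804 and 814 normalised CPM in CD44High, at least 1345-fold higher against the highest limit of a single CD44LowKitPos library (edgeR's adjusted p = 6.5e-05). *C1qc* was likewise at 0 counts in CD44LowKitPos and at 311, 846 and 519 in CD44High (edgeR's adjusted p = 4.3e-05), and *C1qa* at 0 and at 87.5, 308 and 251 (edgeR's adjusted p = 3.3e-04). All 3 chains of C1q were therefore detected in each CD44High library and in no CD44LowKitPos library.

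*Adgre1*, which encodes the macrophage antigen F4/80, had 0 counts in CD44LowKitPos and was at 150.2, 251 and 163 normalised CPM in CD44High, at least 404-fold higher (edgeR's adjusted p = 1.8e-04). *Csf1r*, the receptor of the macrophage growth factor CSF1, was at 8.06, 9.74 and 1.51 normalised CPM in CD44LowKitPos and at 158, 519 and 559 in CD44High (log2 fold change 5.99, SE 0.73, edgeR's adjusted p = 8.5e-05). *Cx3cr1*, the fractalkine receptor of macrophages and their progenitors, was at 0, 0 and 0.452 in CD44LowKitPos and at 391, 933 and 958 in CD44High. With 3 counts in CD44LowKitPos against 9000, the ratio was 4945 (95% counting interval 1692 to 23984, edgeR's adjusted p = 0.00439). *Dab2*, an endocytic adaptor, rose from 6.67, 5.47 and 18.1 to 314, 664 and 605 normalised CPM (log2 fold change 5.71, SE 0.53, edgeR's adjusted p = 1.8e-07), and *Lgmn*, a lysosomal protease, from 4.03, 5.20 and 42.1 to 361, 732 and 795 (log2 fold change 5.20, SE 0.76, edgeR's adjusted p = 6.0e-05). The CD44High libraries lay above all CD44LowKitPos libraries for each of these genes and replicate 20 was the lowest of the 3. The call of *Cx3cr1* was lost without any one of replicates 17, 18, 19, 21 and 22 (edgeR's adjusted p from 0.0121 to 0.0287), and that of *Lgmn* in the fit of the 6 libraries (0.0146).

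*Lyz2*, the lysozyme of macrophages and granulocytes, was at 212, 191 and 145 normalised CPM in CD44LowKitPos and at 1964, 651 and 1853 in CD44High. It was the member with the highest level, and it was present in both populations. Its difference did not pass the threshold (log2 fold change 3.03, SE 1.37, edgeR's adjusted p = 0.239), but did in limma voom (adjusted p = 4.9e-05), in the fit of the 6 libraries (0.0057) and with stage as a covariate (1.2e-04), where *Lyz2* had 0 counts in the 6 E11 endothelial libraries and thus no measurable fold. Neither *Timd4* nor *Cd163*, markers of resident macrophages, was above 0.266 normalised CPM in any of the 6 libraries.

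Other genes with the largest or most certain increases were *Ctss*, *Ly86*, *Ccr1*, *Aif1*, *Ms4a6c*, *Lilrb4a*, *Ctsb*, *Fth1*, *Mt1*, *Sepp1* and *Tmsb4x*. *Ctss*, a cysteine protease of antigen-presenting cells, had 0 counts in CD44LowKitPos and was at 639.6, 1317 and 782 normalised CPM in CD44High, at least 1962-fold higher (edgeR's adjusted p = 1.4e-05). *Ly86*, which encodes MD-1, was at 0 counts and at 373, 341 and 631 (edgeR's adjusted p = 2.9e-05), and the chemokine receptor gene *Ccr1* at 0 counts and at 243, 299 and 260.1 (edgeR's adjusted p = 4.9e-05). *Aif1*, which encodes the macrophage protein IBA1, was at 0 counts and at 85.3, 224 and 212 (edgeR's adjusted p = 3.3e-07). *Ms4a6c* and *Lilrb4a* also had 0 counts in CD44LowKitPos and reached 188, 306 and 220.4 and 60.8, 166 and 199.96 normalised CPM in CD44High. With stage as a covariate, none of these 6 genes, which have at most 1 count in endothelium, was called (edgeR's adjusted p = 0.0267 for *Aif1* and 1 for the others), and in DESeq2's Wald test *Ctss* (0.0719), *Ly86* (0.107), *Ms4a6c* (0.145) and *Lilrb4a* (0.182) were not. The lysosomal protease gene *Ctsb* was present in both and rose from 169, 175 and 160.1 to 1051, 2503 and 2152 (log2 fold change 3.50, SE 0.50, edgeR's adjusted p = 4.4e-05). *Fth1*, the heavy chain of the iron store ferritin, rose from 1015, 973 and 1052 to 2334, 3486 and 5206 (log2 fold change 1.86, SE 0.24, edgeR's adjusted p = 1.0e-05), and the metallothionein gene *Mt1* from 13.3, 11.5 and 9.05 to 809, 339 and 998 (log2 fold change 5.98, SE 0.84, edgeR's adjusted p = 3.9e-05). *Sepp1*, which encodes the selenium carrier selenoprotein P, rose from 129, 270.1 and 311 to 1432, 2850.2 and 978 (log2 fold change 2.89, SE 0.39, edgeR's adjusted p = 2.9e-05). In the fit of the 6 libraries the calls of *Fth1* (adjusted p = 0.0101) and *Sepp1* (0.011) were lost. *Tmsb4x*, an actin-binding peptide, had the highest level of these genes, at 3202, 3735 and 4608 and 9749, 16937 and 14972 normalised CPM (log2 fold change 1.85, SE 0.21, edgeR's adjusted p = 2.7e-06).

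Summed over its 21 genes, the macrophage list reached 223 to 242 normalised CPM in CD44LowKitPos and 4669 to 7950 in CD44High, and 129 to 257 in the endothelial libraries. Of the 21 genes, 10 had 0 counts in CD44LowKitPos (*C1qa*, *C1qb*, *C1qc*, *Adgre1*, *Trem2*, *Cd14*, *Mpeg1*, *Ms4a7*, *Timd4* and *Cd163*), and only *Cd163* had 0 counts in CD44High. In a library of 25 pooled cells, a few cells with much of an RNA and many cells with a little of it cannot be told apart, nor can fewer cells and less RNA per cell. How many of the 25 cells carried these genes was not tested.

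**Figure D2:**
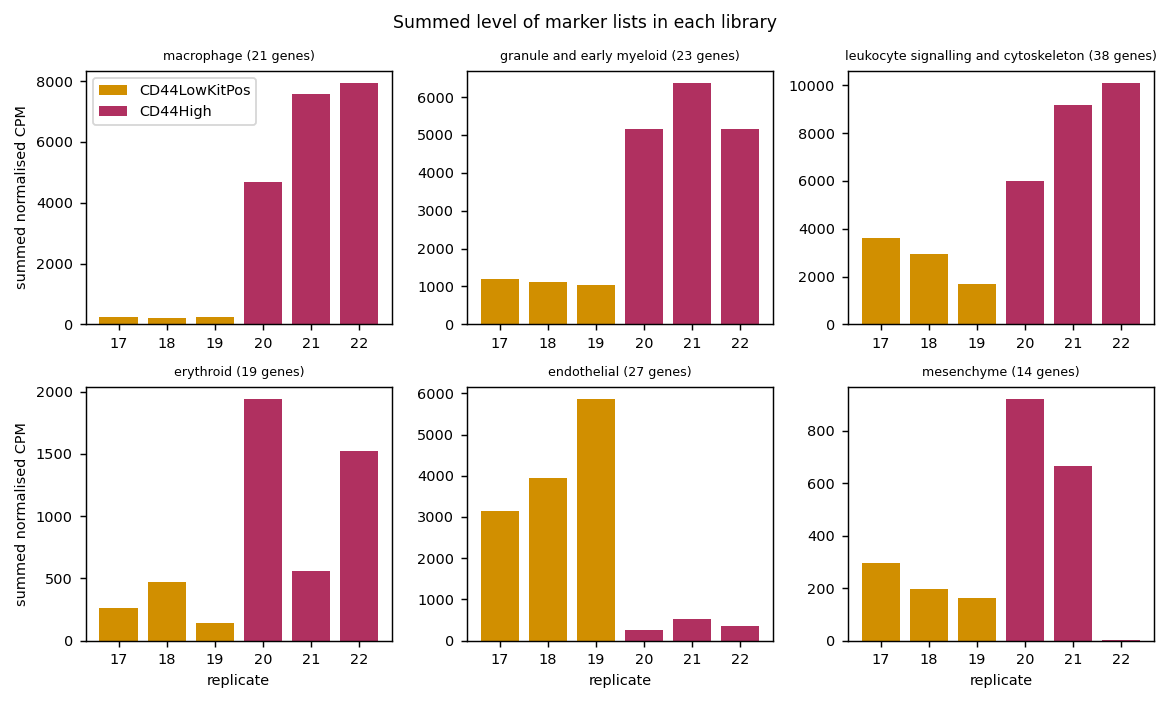
Summed normalised CPM of 6 marker lists in each CD44LowKitPos library (replicates 17 to 19) and CD44High library (replicates 20 to 22), with each vertical axis starting at 0. The macrophage, granule and leukocyte sums were higher in every CD44High library, the endothelial sum was lower in every one, and the mesenchyme sum was high in replicates 20 and 21 and near 0 in replicate 22. Except in replicate 22, *Acta2* alone made up most of the mesenchyme sum.

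Of 38 tested genes of leukocyte signalling and the actin cytoskeleton, 6 rose and none fell, with a median log2 fold change of 1.57, and 36 of the 38 log2 fold changes were above 0. In limma voom 15 were called, and with stage as a covariate 2. Without replicate 18, 19, 20, 21 or 22 in turn, 3, 3, 2, 1 and 3 were called. Their summed level was 1672 to 3614 normalised CPM in CD44LowKitPos and 5995 to 10107 in CD44High, so many of these genes were already on in CD44LowKitPos. *Ptprc*, the pan-leukocyte antigen CD45, was at 112, 94.2 and 29.4 normalised CPM in CD44LowKitPos and at 434, 430.0 and 379.8 in CD44High (log2 fold change 2.40, SE 0.47, edgeR's adjusted p = 0.00508), and was named after its values were seen. *Lcp1*, an actin bundler, rose from 163, 155 and 93.9 to 348, 511 and 730.5 (log2 fold change 1.95, SE 0.33, edgeR's adjusted p = 3.4e-04) and *Nckap1l*, a subunit of the WAVE complex, from 20.3, 16.5 and 10.9 to 87.7, 279.9 and 222 (log2 fold change 3.63, SE 0.63, edgeR's adjusted p = 5.0e-04). *Cd48* rose from 0.155, 0.4 and 0 to 77.4, 101 and 43.3 normalised CPM (log2 fold change 8.45, SE 1.40, edgeR's adjusted p = 0.00142). Its protein is low on stem cells and gained by more committed progenitors. The call of *Ptprc* was lost without any one of replicates 18 to 22 (edgeR's adjusted p from 0.0145 to 0.0234), that of *Cd48* without 20 or 21 (up to 0.0155) and that of *Nckap1l* without 21 (0.019). With stage as a covariate *Ptprc* (adjusted p = 0.849), *Cd48* (0.0537) and *Nckap1l* (0.0258), with 1 to 3 counts in endothelium, were not called. In the fit of the 6 libraries *Ptprc* (0.0202) and *Lcp1* (0.0164) were not, and with thinned counts *Ptprc* (0.0172) was not. *Coro1a*, an actin regulator of leukocytes, was at 522, 359 and 77.5 in CD44LowKitPos and at 306, 613 and 934 in CD44High, with overlapping ranges (log2 fold change 0.95, SE 1.11, edgeR's adjusted p = 0.762). *Arhgdib* was at 474, 416 and 443 and 920.5, 1173 and 1145 (log2 fold change 1.28, SE 0.43, edgeR's adjusted p = 0.0853), a difference that the fit with stage as a covariate called (log2 fold change 1.85, adjusted p = 0.0052).

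Of 19 tested genes of granules and early myeloid cells, 3 rose and none fell (median log2 fold change 2.83). Limma voom called 11, the fit of the 6 libraries 5, and DESeq2 and the fit with stage as a covariate 2 each. *Tyrobp*, the signalling adaptor DAP12, rose from 37.8, 24.1 and 14.0 to 409, 941 and 1119.8 normalised CPM (log2 fold change 5.02, SE 0.54, edgeR's adjusted p = 3.2e-04), *Plac8* from 1.09, 2.53 and 2.11 to 356, 259 and 255 (log2 fold change 7.23, SE 1.14, edgeR's adjusted p = 9.0e-04) and *F13a1*, a transglutaminase of monocytes and macrophages, from 0.31, 6.00 and 4.67 to 139, 359.7 and 337 (log2 fold change 6.23, SE 0.95, edgeR's adjusted p = 0.00308). *Srgn*, the core protein of granule proteoglycans, was at 252, 458 and 186 and 1191, 773 and 174 normalised CPM, with replicate 22 below all CD44LowKitPos libraries (log2 fold change 1.25, SE 0.89, edgeR's adjusted p = 0.525). The call of *F13a1* was lost without replicate 19, 21 or 22 (edgeR's adjusted p up to 0.0168), and with stage as a covariate both *F13a1* and *Tyrobp*, without a count in endothelium, were at an adjusted p of 1. DESeq2 called neither *F13a1* (0.0177) nor *Plac8* (0.0338). The neutrophil protease genes *Elane* and *Ctsg* were at or near 0 in all 6 libraries, at most 1.60 normalised CPM.

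Erythroid genes were present in CD44High but differed between its libraries. *Klf1*, the erythroid Krüppel-like factor, was at 0.465, 0 and 0 normalised CPM in CD44LowKitPos and at 163, 23.4 and 151 in CD44High. With 3 counts in CD44LowKitPos, the ratio was 807 (95% counting interval 275 to 3916, edgeR's adjusted p = 1.8e-04). Of 12 erythroid genes tested, it was the only one called in edgeR's test over all libraries, where 0.78% of all tested genes were called higher. Limma voom called 4 and the fit of the 6 libraries 2 of 9. DESeq2's Wald test did not call it (adjusted p = 0.067), nor did the fit with stage as a covariate (0.0455, with 2 counts in endothelium). *Gata1*, the master regulator of red cells and megakaryocytes, was at 9.93, 0 and 0 and 83.3, 38.1 and 80.8 normalised CPM (log2 fold change 4.34, SE 1.86, edgeR's adjusted p = 0.256), and was called without CD44LowKitPos replicate 17 (edgeR's adjusted p = 0.00971), the only library of its population with counts, and in limma voom (adjusted p = 1.3e-05). *Car2*, carbonic anhydrase, was at 166, 282 and 32.4 and 780.1, 299 and 818 (log2 fold change 1.98, SE 1.33, edgeR's adjusted p = 0.489), and the transferrin receptor gene *Tfrc* at 74.8, 161 and 81.6 and 451, 137 and 117 (log2 fold change 1.15, SE 0.70, edgeR's adjusted p = 0.421). The membrane protein genes *Rhag* and *Ermap*, named after their values were seen, did not pass the filter. They had 0 counts in CD44LowKitPos, reached 209, 0 and 78.9 and 103, 0 and 86.2 normalised CPM in CD44High and were thus present in replicates 20 and 22 alone. The adult globin genes of the list had 0 counts throughout. Summed, the erythroid list reached 143 to 467 normalised CPM in CD44LowKitPos and 558 to 1941 in CD44High.

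Promoter letters were compared, as a description with no test, between the genes that rose and those that fell. RefSeq (GRCm38.p6, the build mm10 of the labels) gave a start for 9919 of the 12949 tested genes, among them 72 called higher and 205 called lower, and the 250 bases before the first listed start were searched on both strands. The RUNX core TGTGGT was in 25.0% of the promoters of higher genes, in 7.80% of those of lower genes and in 10.9% of all tested genes. The ETS core CAGGAA was in 41.7%, 23.4% and 22.3% in the same order, and the core GAGGAA, of the kind that PU.1 binds, in 27.8%, 29.8% and 22.7%. The GATA core AGATAA was in 6.94%, 7.32% and 5.78%, the E-box CAGCTG in 16.7%, 15.1% and 11.2%, and the SOX core ACAATG in 4.17%, 5.37% and 6.04%. The interferon response element (GAAA, any 2 letters, GAAA) was in 8.33%, 3.9% and 2.48%. The median GC content was 52.6% in higher, 62.0% in lower and 60.0% in all genes, and its part in these shares was not tested. These are descriptions of letters and not of bound sites.

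The 3 higher genes of smallest p whose promoters hold the RUNX core are shown with the lower gene of smallest p that has a listed promoter. Capitals mark the RUNX core TGTGGT and the ETS core CAGGAA, either of which may stand in its reverse complement ACCACA or TTCCTG. The sequences run 5′ to 3′ on the strand of the gene and end 1 base before its start.
*Tmsb4x*, chrX:167209219-167209468, minus strand: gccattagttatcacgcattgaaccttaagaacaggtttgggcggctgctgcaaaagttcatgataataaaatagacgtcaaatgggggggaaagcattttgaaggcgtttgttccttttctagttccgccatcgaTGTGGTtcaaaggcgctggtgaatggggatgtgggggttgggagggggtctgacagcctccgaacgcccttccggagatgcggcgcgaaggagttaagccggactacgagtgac
*C1qc*, chr4:136892915-136893164, minus strand: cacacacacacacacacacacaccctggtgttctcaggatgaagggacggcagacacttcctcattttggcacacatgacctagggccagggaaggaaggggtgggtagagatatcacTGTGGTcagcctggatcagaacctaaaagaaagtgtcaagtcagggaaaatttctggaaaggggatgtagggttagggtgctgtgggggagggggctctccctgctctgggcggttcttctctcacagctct
*Ccr1*, chr9:123968693-123968942, minus strand: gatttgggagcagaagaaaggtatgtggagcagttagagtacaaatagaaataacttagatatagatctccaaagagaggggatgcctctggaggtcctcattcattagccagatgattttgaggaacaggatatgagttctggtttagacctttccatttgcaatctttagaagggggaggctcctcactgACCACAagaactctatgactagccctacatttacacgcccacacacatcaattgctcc
*Tek*, chr4:94739039-94739288, plus strand: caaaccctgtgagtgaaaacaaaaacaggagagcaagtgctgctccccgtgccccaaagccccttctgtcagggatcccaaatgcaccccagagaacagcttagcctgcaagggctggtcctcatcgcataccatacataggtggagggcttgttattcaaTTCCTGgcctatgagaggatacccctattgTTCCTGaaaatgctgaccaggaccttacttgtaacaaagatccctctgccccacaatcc
*Tmsb4x*, *C1qc* and *Ccr1* each hold 1 RUNX core, for which they were chosen. *Tek*, the receptor of the angiopoietins, was chosen without regard to letters and holds 2 ETS cores and no RUNX core. The difference in the RUNX core between these promoters was thus set by the choice.

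None of the 7 heptad factors, a set that co-occupies regulatory elements in blood progenitors, was called in edgeR's test, DESeq2 or limma voom. Their median log2 fold change was −0.72. In edgeR's test 2 had an unadjusted p under 0.05, against 2306 of all 12949 tested genes. *Runx1*, required for the endothelial to haematopoietic transition, was at 117, 165 and 109.8 normalised CPM in CD44LowKitPos and at 54.6, 132 and 82.2 in CD44High (log2 fold change −0.54, SE 1.76, edgeR's adjusted p = 0.948). In endothelium it had 1899 counts over the 10 libraries of E9.5 and E10 and 0 counts in the 6 of E11 (edgeR's adjusted p = 4.5e-04). With stage as a covariate the sign turned and *Runx1* was called higher (edgeR's adjusted p = 0.00262), a fitted value that rests on this absence and gives no fold. *Gata2* was at 42.5, 67.5 and 37.7 and 14.6, 35.1 and 7.62 (log2 fold change −1.36, SE 0.55, edgeR's adjusted p = 0.166), *Lyl1* at 246, 170.2 and 83.7 and 83.1, 101 and 119 (log2 fold change −0.72, SE 0.39, edgeR's adjusted p = 0.346) and *Tal1* at 42.3, 61.0 and 35.1 and 21.2, 12.2 and 44.3 (log2 fold change −0.83, SE 0.55, edgeR's adjusted p = 0.476). *Fli1* was at 147, 186 and 215 and 94.2, 184 and 115 (log2 fold change −0.48, SE 0.35, edgeR's adjusted p = 0.531) and *Lmo2* at 211, 112 and 92.6 and 215, 143 and 184 (log2 fold change 0.38, SE 0.42, edgeR's adjusted p = 0.739). *Erg*, needed for the upkeep of stem cells, was at 14.4, 14.8 and 17.6 and 2.18, 8.79 and 0.272 normalised CPM, lower in every CD44High library without passing the threshold (log2 fold change −2.06, SE 0.66, edgeR's adjusted p = 0.0673). It was called without replicate 21 (log2 fold change −3.63, edgeR's adjusted p = 0.00246).

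Of 24 tested blood transcription factors outside the heptad, *Klf1* rose and *Mecom*, *Hoxa9* and *Gata3* fell, against 0.78% and 2.23% of all tested genes. Limma voom called 4 higher and 3 lower, DESeq2 0 and 4, and the fit with stage as a covariate 0 and 2. *Mecom*, which encodes the stem cell factor EVI1, was at 44.2, 86.7 and 101 normalised CPM in CD44LowKitPos and at 0, 1.60 and 0 in CD44High (log2 fold change −7.23, SE 0.77, edgeR's adjusted p = 8.5e-07). *Hoxa9*, a homeobox factor of stem and progenitor cells, was at 106, 257 and 92.1 and 0, 2.40 and 0 (log2 fold change −7.62, SE 0.95, edgeR's adjusted p = 7.9e-06), and *Gata3* at 4.03, 17.2 and 23.1 and 0, 1.33 and 0 (log2 fold change −5.08, SE 1.12, edgeR's adjusted p = 0.00549). In CD44High, *Mecom* and *Hoxa9* had counts in replicate 21 alone. The call of *Gata3* was lost without replicate 18, 19, 20 or 22 (edgeR's adjusted p up to 0.0364), with stage as a covariate (0.0295), in limma voom (0.0677) and in the fit of the 6 libraries (0.081). *Gfi1*, a repressor that silences endothelial genes, was at 28.2, 31.8 and 42.5 in CD44LowKitPos and had 1 count in CD44High, a ratio of 426 (95% counting interval 76.2 to 16845) that did not pass the threshold (edgeR's adjusted p = 0.0459) but did in the fit of the 6 libraries (adjusted p = 0.00153), DESeq2 (0.00563) and limma voom (0.00427). *Hlf*, a marker of stem cells, was at 34.3, 67.4 and 17.5 and 0, 3.73 and 0 (log2 fold change −5.00, SE 2.00, edgeR's adjusted p = 0.164).

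None of the following 6 blood factors was called. *Spi1*, which encodes PU.1, was at 257, 232 and 118 and 64.9, 194 and 249 normalised CPM with overlapping ranges (log2 fold change −0.26, SE 1.16, edgeR's adjusted p = 0.967). *Ikzf1* was at 140.2, 69.2 and 47.3 and 96.8, 81.5 and 138 (log2 fold change 0.30, SE 1.10, edgeR's adjusted p = 0.956), *Myb* at 112, 206 and 55.0 and 90.7, 59.1 and 53.9 (log2 fold change −0.87, SE 1.56, edgeR's adjusted p = 0.87) and *Gfi1b* at 73.5, 23.6 and 35.6 and 63.7, 30.1 and 92.8 (log2 fold change 0.49, SE 0.86, edgeR's adjusted p = 0.868). The range of *Irf8*, a factor of monocytes and macrophages, was higher in CD44High, at 28.5, 46.1 and 133 against 0.155, 2.40 and 0 normalised CPM, without passing the threshold (log2 fold change 6.29, SE 2.36, edgeR's adjusted p = 0.131). Limma voom called it (adjusted p = 0.00317). *Cebpa*, the factor of granulocyte and macrophage progenitors, was at 0.198, 11.4 and 9.79 normalised CPM in CD44High and at 0.62, 0 and 0 in CD44LowKitPos and did not pass the filter.

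Among 28 tested cytokine receptors and stem cell surface genes, *Csf1r* and *Cd48* rose and *Procr* and *Cd34* fell, against 0.78% and 2.23% of all tested genes. Limma voom called 5 higher and 2 lower, DESeq2 3 and 3, and the fit with stage as a covariate 1 and 2. *Procr*, the protein C receptor that marks stem cells and their precursors, was at 52.1, 55.4 and 41.9 normalised CPM in CD44LowKitPos and at 1.78, 2.13 and 0 in CD44High (log2 fold change −5.20, SE 1.0, edgeR's adjusted p = 0.00145), a call lost without replicate 22 (edgeR's adjusted p = 0.0103) and in limma voom (0.0722). *Cd34* was at 1236, 1244 and 912 and 107, 265 and 77.0 (log2 fold change −2.92, SE 0.39, edgeR's adjusted p = 2.4e-05). *Cd27* was at 24.5, 11.2 and 24.9 normalised CPM and had 0 counts in CD44High, at least 24.7-fold lower, without passing the threshold (edgeR's adjusted p = 0.0371). It was called in DESeq2 (adjusted p = 0.00772), limma voom (6.0e-05) and the fit of the 6 libraries (0.00711). *Flt3* was at 27.1, 9.74 and 1.21 and 5.54, 7.99 and 11.4 (log2 fold change −0.61, SE 2.29, edgeR's adjusted p = 0.957) and *Adgrg1* at 491, 379 and 91.8 and 118, 207 and 67.5 (log2 fold change −1.29, SE 0.98, edgeR's adjusted p = 0.564). *Itga2b*, which encodes CD41, was at 69.2, 37.6 and 13.7 and 15.6, 33.8 and 18.8 (log2 fold change −0.82, SE 1.25, edgeR's adjusted p = 0.836). *Ly6a*, which encodes the stem cell antigen Sca-1, was at 3.57, 4.0 and 0 in CD44LowKitPos and had 0 counts in CD44High. The SLAM stem cell marker *Slamf1* had counts in CD44High replicate 20 alone, at 10.1 normalised CPM.

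These RNA levels of pooled cells go against the label HSPC in part. They do not measure what the cells can form, for which the paper gives other evidence. It reported blood colonies from single CD44High cells and both B and T cells from sorted ones. Each CD44High library held *Kit*, *Runx1*, *Myb*, *Ptprc* and the heptad genes other than *Erg*, which progenitors express. *Erg* had a level in replicate 22 (0.272 normalised CPM) that cannot be told from 0. Each CD44High library also had counts for 19 or 20 of the 21 macrophage genes, against 7, 7 and 10 in CD44LowKitPos. *Mecom*, *Hoxa9*, *Hlf*, *Procr*, *Gfi1* and *Cd27* were at or near 0 in CD44High. CD44LowKitPos, labelled Pre-HSPC, held all 6 of these genes in all 3 libraries. The 6 were picked after their values were seen, and *Hlf*, *Gfi1* and *Cd27* did not pass the threshold. Other members of their lists, *Adgrg1*, *Gfi1b*, *Spi1* and the lower *Cd34*, kept a level in every CD44High library. *Slamf1* had counts in CD44High replicate 20 and none in CD44LowKitPos.

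**Figure D3:**
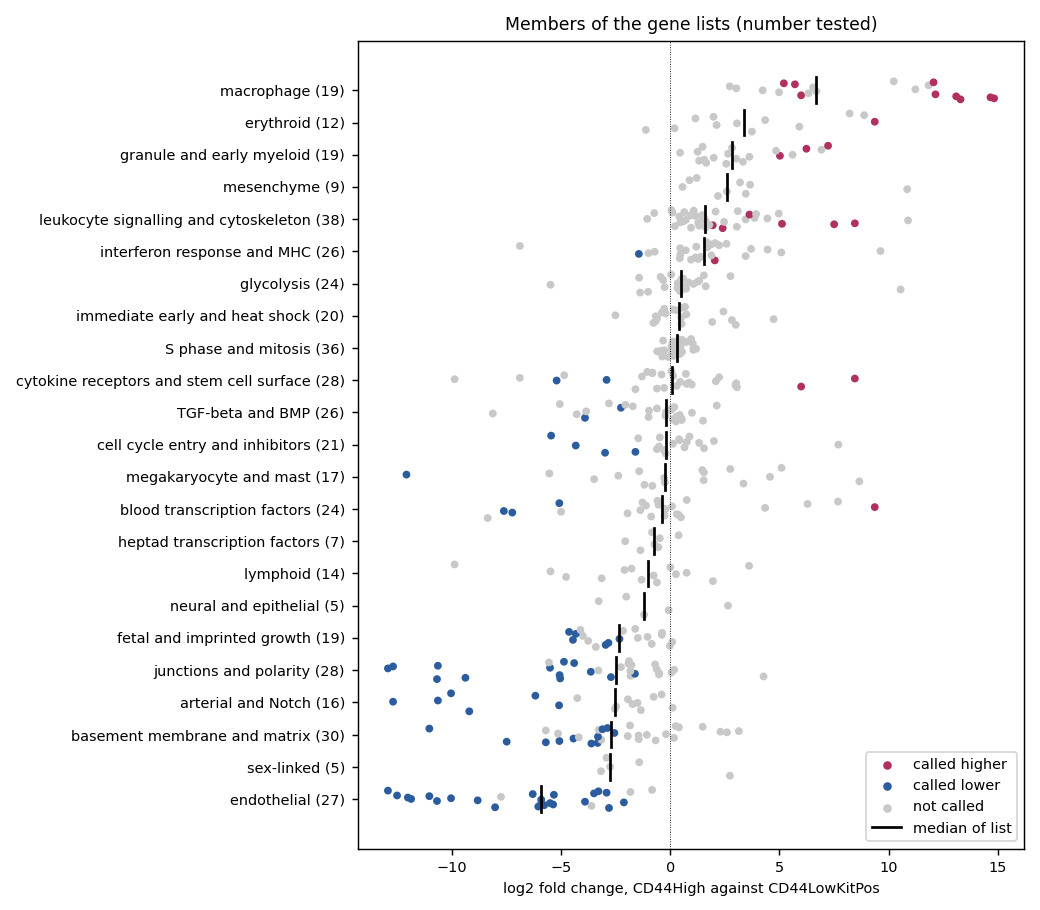
Log2 fold changes of CD44High against CD44LowKitPos for the tested members of 23 gene lists, ordered by their medians (black bars), with called genes in red (higher) and blue (lower). The median was 6.69 over the 19 macrophage genes, of which 8 were at 0 in CD44LowKitPos and passed the filter through CD44High, and −5.91 over the 27 endothelial genes. The size of the fold changes of genes at 0 in a whole population depends on the prior count of the fit.

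On the other side, the endothelial genes still expressed in CD44LowKitPos fell. Of 27 endothelial genes tested, 23 fell and none rose, and the median log2 fold change was −5.91 (−5.50 with genes at 0 counts at their bound). The list summed to 3156 to 5866 normalised CPM in CD44LowKitPos and to 253 to 522 in CD44High, against 9077 to 23582 in the endothelial libraries. *Tek* fell from 109, 239.7 and 215 to 1.39, 6.66 and 2.45 normalised CPM (log2 fold change −5.77, SE 0.47, edgeR's adjusted p = 4.3e-08). *Cldn5*, a tight junction protein of endothelium, was at 43.4, 109 and 351 in CD44LowKitPos and had 1 count in CD44High, a ratio of 2075 (95% counting interval 372 to 81996, edgeR's adjusted p = 4.4e-08). *Sox18*, *Sox7* and *Clec14a*, the first 2 being SOXF transcription factors of endothelium, had 0 counts in CD44High. *Sox18* was at 50.9, 70.7 and 145 in CD44LowKitPos and at least 109-fold lower in CD44High, *Sox7* at 7.44, 65.5 and 168 and at least 98.4-fold lower, and *Clec14a* at 24.7, 85.0 and 267 and at least 154-fold lower. The size of these bounds, and of the ratio of *Cldn5*, rests most on replicate 19, where each level was highest. *Egfl7*, a secreted factor of endothelium, was among the few members that kept a level in CD44High, at 57.2, 53.8 and 126 against 295, 296 and 441 (log2 fold change −2.12, SE 0.35, edgeR's adjusted p = 2.5e-04). In the fit of the 6 libraries *Egfl7* (adjusted p = 0.0148) and *Sox7* (0.0164) were not called, nor was *Sox7* in limma voom (0.013). The sum in CD44LowKitPos was highest in replicate 19, and without it 20 of the 27 fell. The members not called were *Flt4*, *Robo4*, *Icam2* and *Tal1*, and all but *Tal1* were called under at least 1 alternative. *Tal1* is also a blood factor.

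The remaining genes with the largest or most certain decreases were *Vwf*, *S100a16*, *Ptchd1*, *Heph*, *Adgrf5*, *Ablim1*, *Myct1*, *Calcrl*, *Fgd5* and *Ecscr*. *Vwf*, which encodes the von Willebrand factor of endothelium and megakaryocytes, was at 98.9, 103 and 77.3 normalised CPM in CD44LowKitPos and had 0 counts in CD44High, at least 114-fold lower (edgeR's adjusted p = 4.6e-05), a call lost in limma voom (0.0511). *Myct1* was at 105, 129.7 and 76.0 and 0, 1.07 and 0 (log2 fold change −8.22, SE 0.77, edgeR's adjusted p = 1.8e-07), and *Calcrl*, a receptor of adrenomedullin, at 311, 829 and 752 and 18.4, 23.2 and 14.4 (log2 fold change −5.08, SE 0.44, edgeR's adjusted p = 6.1e-08). *Ptchd1* was at 60.2, 55.9 and 57.9 and had 0 counts in CD44High, at least 71.0-fold lower (edgeR's adjusted p = 2.6e-06). The levels of *Vwf* and *Ptchd1* were alike in the 3 CD44LowKitPos libraries, replicate 19 included.

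Of 16 arterial and Notch genes, 6 fell (median −2.51), and the 3 given here were highest in replicate 19. *Gja4*, which encodes the gap junction protein connexin 37, was at 14.1, 41.9 and 371 normalised CPM in CD44LowKitPos and had 0 counts in CD44High (edgeR's adjusted p = 2.3e-05). *Gja5*, connexin 40, was at 1.71, 5.60 and 95.7 and had 0 counts (edgeR's adjusted p = 5.0e-04), and the netrin receptor gene *Unc5b* was at 4.50, 7.20 and 43.6 and 0.594, 0 and 0 (edgeR's adjusted p = 4.2e-04). *Nrp1*, a co-receptor of VEGF, was at 0.31, 46.0 and 326 in CD44LowKitPos and at 38.8, 106 and 75.1 in CD44High (log2 fold change −0.76, SE 0.82, edgeR's adjusted p = 0.736), so all CD44High libraries lay within the range of CD44LowKitPos. The list summed to 85.3, 266 and 1513 normalised CPM in replicates 17, 18 and 19. Without replicate 19, 21 or 22, 4 of the 16 were called. In the fit of the 6 libraries none of the 11 tested was called and in limma voom none of the 16. *Gja4* (adjusted p = 0.0227 and 0.0548), *Gja5* (0.0611 and 0.0714) and *Unc5b* (0.0404 and 0.0645) lost their calls in these 2 fits.

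Of 28 junction and polarity genes, 13 fell and none rose (median −2.49). *Ptrf*, a coat protein of caveolae, was at 27.0, 51.9 and 61.1 and 1.78, 2.93 and 1.90 normalised CPM (log2 fold change −4.40, SE 0.40, edgeR's adjusted p = 1.1e-07), and *Esam*, an adhesion molecule of endothelium, at 234, 251 and 288 and 0, 13.6 and 3.81 (log2 fold change −5.50, SE 0.76, edgeR's adjusted p = 3.2e-05). *Ctnnb1*, which encodes beta-catenin, fell from 420.0, 630.1 and 678 to 231, 233 and 99.8 (log2 fold change −1.62, SE 0.30, edgeR's adjusted p = 0.00106). Of 30 matrix genes, 11 fell and none rose (median −2.72). Fibronectin, encoded by *Fn1*, fell from 496, 624 and 846 to 117, 60.2 and 20.9 (log2 fold change −3.31, SE 0.49, edgeR's adjusted p = 6.5e-05), *Igfbp4*, a binding protein of insulin-like growth factors, from 346, 385 and 286 to 48.7, 73.8 and 50.3 (log2 fold change −2.56, SE 0.32, edgeR's adjusted p = 7.6e-06) and the collagen chaperone gene *Serpinh1* from 37.7, 46.4 and 55.5 to 9.11, 5.06 and 4.62 (log2 fold change −2.87, SE 0.31, edgeR's adjusted p = 8.5e-07). *Mmrn2*, a matrix protein of endothelium, was at 18.5, 29.3 and 87.3 and had 0 counts in CD44High, at least 55.2-fold lower, a bound that rests most on replicate 19. In the fit of the 6 libraries *Ctnnb1* (adjusted p = 0.0406), *Esam* (0.0164), *Fn1* (0.0133) and *Serpinh1* (0.011) were not called. Limma voom did not call *Esam* (0.0125) or *Serpinh1* (0.0119), and with stage as a covariate *Ctnnb1* (0.0109) was lost. These 2 fits, of the 6 libraries and by limma voom, called 5 and 8 of the junction genes and 2 and 3 of the matrix genes lower. Of 26 genes of the TGF-beta and BMP pathways, 2 fell (2.23% of all tested genes did), but none was called in either of these fits. *Eng*, a co-receptor of TGF-beta family ligands, was at 136, 136 and 90.6 and 0.594, 11.4 and 12.5 (log2 fold change −3.91, SE 0.71, edgeR's adjusted p = 7.7e-04, in the fit of the 6 libraries 0.0229 and in limma voom 0.145), and *Id1*, a target of BMP signalling, at 81.6, 94.2 and 183 and 37.0, 25.0 and 12.8 (log2 fold change −2.26, SE 0.49, edgeR's adjusted p = 0.00492), a call lost without replicate 19, 21 or 22 (edgeR's adjusted p up to 0.0436), in the fit of the 6 libraries (0.0306) and in limma voom (0.0802). *Id2* was at 31.6, 204 and 163 and 168, 76.2 and 210.3 (log2 fold change 0.18, SE 0.51, edgeR's adjusted p = 0.932) and *Id3* at 55.4, 152 and 623 and 173, 76.4 and 3.26 (log2 fold change −1.72, SE 0.73, edgeR's adjusted p = 0.203).

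Of 19 tested genes of the fetal and imprinted list, 6 fell and none rose (median −2.33). *H19*, an imprinted non-coding RNA expressed from the maternal allele, was at 326, 464 and 514 normalised CPM in CD44LowKitPos and at 25.5, 30.1 and 3.54 in CD44High (log2 fold change −4.46, SE 0.60, edgeR's adjusted p = 2.6e-05). *Igf2*, its neighbour and a fetal growth factor, was at 733, 899 and 964 and 105, 86.0 and 0.272 and lay at the threshold without passing it (log2 fold change −3.76, SE 0.89, edgeR's adjusted p = 0.01). It passed without replicate 22 (log2 fold change −3.22, edgeR's adjusted p = 0.00545), with upper quartile scaling (0.00907), without a filter (0.00705), with a minimum count of 50 (0.00989), with thinned counts (0.0076), in DESeq2 (0.00171) and with stage as a covariate (0.0016). *Igf2bp2*, which encodes an RNA-binding protein of fetal tissues, fell from 111, 149.5 and 90.3 to 18.4, 23.2 and 7.62 (log2 fold change −2.83, SE 0.40, edgeR's adjusted p = 4.0e-05) and *Cdkn1c*, an imprinted cell cycle inhibitor, from 98.5, 157 and 200.2 to 18.8, 3.20 and 0 (log2 fold change −4.33, SE 0.77, edgeR's adjusted p = 6.1e-04). The fit of the 6 libraries and limma voom called 2 and 3 genes of this list lower. Limma voom did not call *H19* (adjusted p = 0.0247), and neither fit called *Cdkn1c* (0.0518 and 0.013). *Mest*, another imprinted gene, was at 5.74, 17.7 and 1802 in CD44LowKitPos, nearly all of it in replicate 19, and at 108, 4.79 and 0.272 in CD44High (log2 fold change −4.0, SE 1.34, edgeR's adjusted p = 0.0842). Its sign turned without replicate 19 (log2 fold change 1.70, edgeR's adjusted p = 0.439) and it was called without replicate 20 (−8.03, edgeR's adjusted p = 0.00581). *Lin28b* and *Igf2bp3*, fetal regulators named after their values were seen, were not called. *Lin28b* was at 75.8, 161 and 82.9 and 157, 87.3 and 71.6 (log2 fold change −0.02, SE 0.78, edgeR's adjusted p = 1) and *Igf2bp3* at 91.7, 146 and 217 and 150.2, 182 and 152 (log2 fold change 0.09, SE 0.42, edgeR's adjusted p = 0.97).

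Of 21 tested regulators of entry into the cell cycle, 4 fell and none rose in edgeR's test, against 2.23% and 0.78% of all tested genes. DESeq2 called 1 higher and 4 lower, and limma voom 2 higher and 2 lower. *Ccnd2*, which encodes cyclin D2, fell from 390.4, 363 and 199.8 to 38.8, 27.7 and 53.9 normalised CPM (log2 fold change −2.98, SE 0.42, edgeR's adjusted p = 3.6e-05) and *Ccnd3*, cyclin D3, from 393, 332 and 189.8 to 69.9, 76.2 and 156 (log2 fold change −1.60, SE 0.34, edgeR's adjusted p = 0.00366). *Mycn*, named after its values were seen, was at 223, 338 and 219 and 8.51, 9.05 and 0 (log2 fold change −5.46, SE 1.19, edgeR's adjusted p = 0.00484), and *Myc* at 107, 89.2 and 92.9 and 172, 172 and 189 (log2 fold change 0.88, SE 0.32, edgeR's adjusted p = 0.114). The call of *Ccnd3* was lost without replicate 17, 18, 20 or 21 (edgeR's adjusted p up to 0.0198) and that of *Mycn* without replicate 18, 20, 21 or 22 (up to 0.0234). *Ccnd3* was not called in the fit of the 6 libraries (0.0485), nor *Mycn* there (0.0107), in limma voom (0.0622) or with stage as a covariate (0.0582). Of the list, 2 genes were called without replicate 18, 20 or 21 and 1 in the fit of the 6 libraries. *Cdk4* was at 924, 759 and 927 and 516, 527 and 663 (log2 fold change −0.61, SE 0.20, edgeR's adjusted p = 0.0642). Of 36 genes of S phase and mitosis, none was called in edgeR's test, DESeq2 or limma voom, and their median log2 fold change was 0.29. In edgeR's test 1 had an unadjusted p under 0.05, against 2306 of all 12949 tested genes. *Mcm6*, a subunit of the replicative helicase, was at 617, 651 and 562 and 805, 522 and 587 (log2 fold change 0.06, SE 0.43, edgeR's adjusted p = 0.983), and *Rrm1*, of ribonucleotide reductase, at 548, 449 and 429.7 and 695, 505 and 661 (log2 fold change 0.38, SE 0.35, edgeR's adjusted p = 0.658).

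Of 26 tested genes of the interferon response and antigen presentation, 1 rose and 1 fell (median 1.54), against 0.78% and 2.23% of all tested genes. Limma voom called 5 higher and 1 lower. *B2m*, the light chain of class I molecules, rose from 499, 784 and 534 to 2154, 2959 and 2351 normalised CPM (log2 fold change 2.04, SE 0.35, edgeR's adjusted p = 3.8e-04). *Ifitm2*, an interferon-induced membrane protein, fell from 493, 500.4 and 647 to 157, 280.4 and 168 (log2 fold change −1.44, SE 0.29, edgeR's adjusted p = 0.00231), a call lost without replicate 19, 20 or 22 (edgeR's adjusted p up to 0.0196) and in the fit of the 6 libraries (0.025). No member of the lymphoid (14 tested), glycolysis (24), immediate early and heat shock (20), mesenchyme (9), neural and epithelial (5) or sex-linked (5) lists was called in edgeR's test over all libraries, where 5, 9, 3, 1, 2 and 4 in this order had an unadjusted p under 0.05. Of all 12949 tested genes, 2306 had such a p in that test. Of the glycolysis genes, DESeq2 called 3 higher, limma voom 2, and the fit of the 6 libraries and that with stage as a covariate 1 each. Of the lymphoid genes, DESeq2 called 2 lower, and limma voom and the fit of the 6 libraries 1 each. Of 17 megakaryocyte and mast cell genes edgeR called *Vwf* alone, as lower (2.23% of all tested genes were). DESeq2 called 2 lower and limma voom 2 higher and none lower. *Ldha* was at 1887, 1374 and 1486 and 2097, 1894 and 3155 (log2 fold change 0.59, SE 0.29, edgeR's adjusted p = 0.292), *Aldoa* at 1517, 1076 and 1426 and 1305, 1515 and 2939 (log2 fold change 0.52, SE 0.27, edgeR's adjusted p = 0.33), and *Hsp90aa1* at 1759, 1797 and 1368 and 4138, 2006 and 1739 (log2 fold change 0.68, SE 0.41, edgeR's adjusted p = 0.422). With stage as a covariate *Hsp90aa1* was called (log2 fold change 1.62, adjusted p = 0.00394). *Acta2*, the smooth muscle actin, was at 270.3, 181 and 117 in CD44LowKitPos and at 598, 449 and 0 in CD44High, with 0 counts in replicate 22. The 14 mesenchyme genes summed to 164 to 295 normalised CPM in CD44LowKitPos and to 921, 666 and 0.272 in CD44High replicates 20, 21 and 22. Except in replicate 22, *Acta2* alone made up most of each sum, and its mean in CD44LowKitNeg endothelium was 163. *Tcf21*, a defining mesenchymal factor of this list, was at 0 in all 6, and *Col1a1*, *Col3a1*, *Lum*, *Osr1* and *Wt1* were at 0 in CD44LowKitPos. In CD44High, 12, 9 and 1 of the 14 had counts in replicates 20, 21 and 22, with *Col1a1* at 60.6, 65.5 and 0.272 and *Col3a1* at 85.1, 33.8 and 0 normalised CPM. The part of mesenchymal RNA in the results was not tested.

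Of the 5 sex-linked genes, the ranges were separate for 4 (23.9% of all tested genes), higher in CD44High for *Xist* and lower for 3 Y-linked genes. *Xist*, expressed from the inactive X chromosome of females, was at 114, 168 and 122 normalised CPM in CD44LowKitPos and at 1229, 1065 and 395 in CD44High (log2 fold change 2.73, SE 0.72, edgeR's adjusted p = 0.0217), and the Y-linked gene *Ddx3y* at 60.0, 118 and 70.4 and 6.53, 9.59 and 11.4 (log2 fold change −3.17, SE 0.97, edgeR's adjusted p = 0.0523). All CD44High libraries lay above the CD44LowKitPos libraries for *Xist* and below them for *Ddx3y*. *Xist* and *Ddx3y* passed in the fit of the 6 libraries (adjusted p = 0.00964 and 0.00431) and in DESeq2's Wald test (0.00403 and 0.00706). Both kinds of RNA were in each library, and their part in the other results was not tested.

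Since all CD44High libraries were from E11, the change with stage was measured where stages could be compared, in endothelium. E11 was set against E9.5 and E10 in CD44Neg (3 against 7 libraries) and in CD44LowKitNeg (3 against 3), and the 2 differences were averaged. Of 12949 genes, 201 changed with stage (1.55%), 28 higher (0.216%) and 173 lower (1.34%) at E11. The count was 525 in DESeq2's Wald test and 49 without CD44Neg replicate 3, and it lay between 70 and 127 without any one of CD44Neg replicates 1 and 2 and CD44LowKitNeg replicates 11, 13, 14 and 15, so the overlap with it rests on a count that moves with 1 library. Of the 390 genes called between the blood populations, 9 (2.31%) were among them, which is 4.48% of the 201. The 9 were *B2m*, *Ctsb*, *Ctsz*, *Hapln1*, *Mycn*, *Pecam1*, *Ramp2*, *Sncg* and *Sox18*. Of these, 5 had the same direction in both. *Ctsb* rose at E11 in endothelium by a log2 fold change of 1.02 (SE 0.21, edgeR's adjusted p = 0.00524), *Ctsz*, another lysosomal protease gene, by 1.14 (SE 0.22, edgeR's adjusted p = 0.00393) and *B2m* by 0.65 (SE 0.14, edgeR's adjusted p = 0.00706). Between the blood populations these 3 genes rose by 3.50, 2.91 and 2.04. *Mycn* fell by 2.52 and *Hapln1*, a link protein of hyaluronan, by 2.08 on the log2 scale at E11.

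The other 4 went opposite ways. *Sox18* (1.12), *Ramp2* (1.27), *Pecam1* (1.33) and *Sncg* (1.73) rose at E11 in endothelium on the log2 scale and fell in CD44High. Between the blood populations, the call of *Pecam1* was lost without replicate 19, 20 or 22 (edgeR's adjusted p up to 0.0452), in the fit of the 6 libraries (0.0245) and in limma voom (0.147). Limma voom did not call *Ramp2* (0.0259), *Sncg* (0.0624) or *Hapln1* (0.148), nor the fit of the 6 libraries *Sncg* (0.0195). The 30 higher genes without a count in endothelium, *C1qb* and *Ctss* among them, have no stage difference there that could be measured. With stage as a covariate over all 22 libraries, 354 genes were called between the populations, 64 higher (0.494%) and 290 lower (2.24%), and 268 of these were among the 390. This fit assumes that stage acts alike in endothelium and blood, which the 6 libraries cannot test. Without replicate 19, which leaves E11 against E10, 297 genes were called, 263 of them among the 390.

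**Figure D4:**
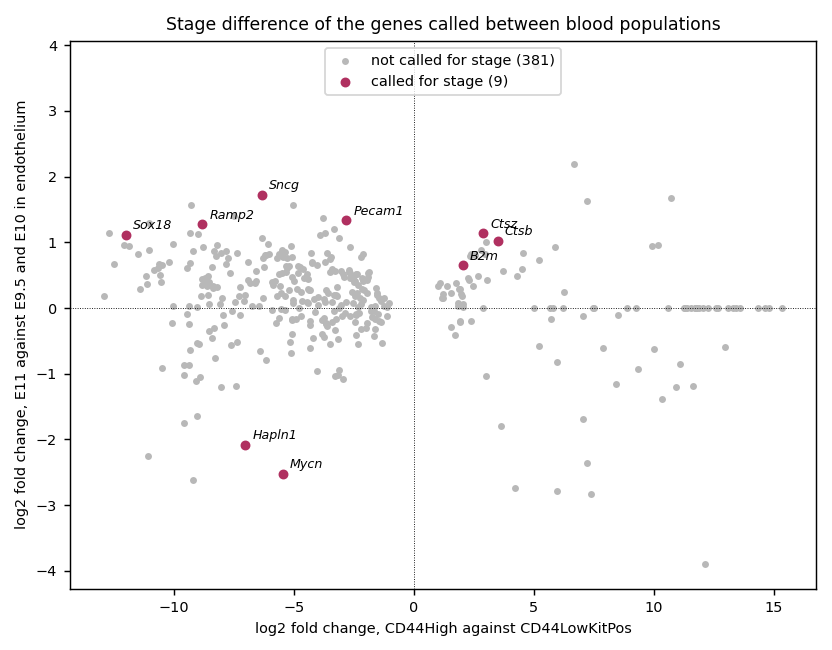
Log2 fold change of E11 against E9.5 and E10 in endothelium (vertical) against that of CD44High against CD44LowKitPos (horizontal) for the 390 genes called between the blood populations, with the 9 genes also called for stage named in red. *B2m*, *Ctsb* and *Ctsz* were higher in both, *Hapln1* and *Mycn* lower in both, and genes with no count in endothelium lie at 0 on the vertical axis.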

How the data were processed

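For the bulk RNA-seq, the authors amplified the RNA of 25 sorted cells per library with SMART-Seq2 (14 PCR cycles), made Nextera libraries, clipped adaptors with FASTX, mapped reads with RNA STAR and counted them with htseq-count. The deposited values are raw counts of 24454 gene symbols. Per the labels the build was mm10 and the tools included FastQC and HTSeq, while the annotation, strand setting and tool versions are not given in the sources used here. Overlapping genes and near-identical copies may therefore share reads.

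The counts went into edgeR 4.0.16 under R 4.3.3. DESeq2 1.42.0 and limma 3.58.1 served for alternatives, and tables were made in Python 3.11.15 with pandas 2.3.3, scipy 1.17.1 and matplotlib 3.10.9. Genes were filtered with filterByExpr (minimum count 10, minimum total 15) and scaled by TMM. All 22 libraries were fitted with 1 mean per population (quasi-likelihood test, prior count 0.125, Benjamini-Hochberg adjustment), and an adjusted p under 0.01 made a call. For stage, E11 was compared with E9.5 and E10 within each endothelial population, and the differences were averaged. Standard errors come from the F statistic, and distances are Euclidean on log2 CPM (prior count 2). Ratios against 1 to 3 counts carry exact conditional 95% intervals, which cover counting error only.

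Named genes are the sort markers, the 10 largest changes without overlap and the 10 smallest p in each direction, up to 3 called members per list in each direction with the 2 of highest level, and any blood transcription factor or cytokine receptor. Markers given as at or near 0, list members without a call, genes called in both comparisons, and genes so described were named after their values were seen. The populations, lists and tests were chosen with earlier results of these data known, so they are not independent of them. *Ahsp* and *Ighm* are on the lists but were not analysed here. No source says whether libraries of a population came from separate litters, so p-values measure the spread between these libraries, which may be technical. The steps were tested on simulated data.

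Alternatives were other scalings (DESeq2's size factors, upper quartile), no filter or a minimum count of 50, DESeq2's Wald test, limma voom, thinned counts, leaving out *Rn45s*, the 6 libraries alone, stage as a covariate, other thresholds, and leaving out each of the 6 libraries in turn. For stage, each E11 CD44Neg library and each CD44LowKitNeg library was left out in turn. The authors' single-cell data were not analysed here.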

Additional observations from a re-analysis of the deposited data

Results flagged for a closer look

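In the endothelial libraries, 10 sets of values for genes of the level plot varied enough to be tested for a library far from the others, and 5 had one. Chance flags about 1 in 20 sets of continuous values, a share that does not apply to the 4 sets of *Ptprc*, *Csf1r*, *Cx3cr1* and *Klf1*, where all other libraries were at 0 and any count stands apart. In CD44LowKitNeg, *Ptprc* had counts in replicate 12 alone (0.129 normalised CPM), *Csf1r* in replicate 15 alone (0.168) and *Cx3cr1* in replicate 14 alone (13.7), with the other 5 libraries at 0. In CD44Neg, *Klf1* had counts in replicate 8 alone (0.402 normalised CPM), with the other 9 at 0. *H19* was at 1202 normalised CPM in CD44Neg replicate 9 and at 440.2 to 760.1 in the other 9 libraries. The values of *Ptprc*, *Csf1r* and *Klf1* are under the limit that a count of 0 allows in their library.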

How the results depend on the processing

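No paired analysis was possible because the 2 blood populations share no stage. The replicate numbers run on through the series and pair no libraries. The count of genes called between CD44High and CD44LowKitPos (390) was 716 in DESeq2's Wald test, 204 in the fit of the 6 libraries and 784 at an adjusted p under 0.05. Without 1 of the 6 libraries it ran from 251 (without CD44High replicate 22) to 392, and under the other alternatives it stayed within 1.5 times. The count for stage in endothelium (201) was 525 in DESeq2, 396 in limma voom, 645 at an adjusted p under 0.05 and 132 with at least 2-fold change, and ran from 49 (without CD44Neg replicate 3) to 188 without 1 library. Of the 75 genes that are named and called, 28 kept their call in every alternative with a value, and none reversed. Among named genes without a call, the log2 fold change reversed under stage as a covariate for *Runx1* (10.52), *Spi1* (3.71), *Flt3* (5.13), *Lin28b* (1.48), *Itga2b* (0.24), *Myb* (0.12) and *Id2* (−0.23), of which *Runx1* and *Flt3* had 0 counts in E11 endothelium and their values are no folds, and in limma voom for *Nrp1* (1.75), *Acta2* (−1.97), *Flt3* (0.16) and *Lin28b* (0.0085). *Lin28b* also turned with DESeq2's size factors (0.047) and in DESeq2's test (0.046). Without 1 library, these and other genes spanned 0, with log2 fold changes of *Cd44* −0.23 to 0.36, *Flt3* −1.16 to 0.58, *Id2* −0.30 to 0.62, *Igf2bp3* −0.18 to 0.43, *Ikzf1* −1.6e-05 to 0.83, *Lin28b* −0.51 to 0.41, *Mcm6* −0.23 to 0.14, *Mest* −8.03 to 1.70, *Nrp1* −1.36 to 1.63 and *Spi1* −0.70 to 0.047. Apart from *Runx1* under stage as a covariate and *Mest* without replicate 20, none of these passed the threshold where given, and the causes were not tested. The depth allows no level under 0.594 to 0.816 normalised CPM to be told from 0 in a CD44High library.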
